A study of Mus musculus with 8 samples.

Results

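The genes described here encode 7 secreted proteins, which are the angiopoietin-like factors Angptl2, Angptl4 and Angptl6 and the stress-induced factors Fgf21, Gdf15, Vegfa and Adm. They were chosen by symbol, and all 7 were present among the 49492 rows of the expression table. The choice was made with earlier results of these data known, because Angptl6 stood near the top of the genes higher under glucose starvation. The contrasts between starved and normal medium are therefore given for these genes as a description, without a test. A gene was tested if 2 or more libraries reached a value of 1, and 7 of 7 members were, Fgf21 and Gdf15 only through their starved samples.

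Transcripts were measured by RNA-seq in mouse embryonic fibroblasts (MEFs), connective tissue cells grown from embryos, in 8 libraries of 4 groups with 2 replicates each. The MEFs had been immortalised by serial passage (a 3T3 protocol), carried Pontin alleles flanked by loxP sites, and stably expressed Flag-tagged Pontin from a lentivirus, after which the cells' own Pontin was deleted with Cre. Pontin, the product of Ruvbl1, is an AAA+ ATPase found in complexes that remodel chromatin. The WT cells carried the wild-type protein and the RA cells a form with 2 arginines replaced by alanine, which removes the sites at which CARM1 methylates it. Each genotype was kept in normal medium (DMEM with serum) or in glucose-free DMEM with dialyzed serum, and the length of starvation for RNA-seq is not given in the labels. Each genotype is 1 stable line, so the form of Pontin and other differences between the lines cannot be told apart. Nothing in the labels says that replicates came from separate cultures, so the tests measure the spread between these libraries, which may be technical.

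Reads summed over all rows lay between 43205841 and 56363034 per library. Reads in overlapping genes can enter this sum more than once, so it is not the sequencing depth. A count of 3 reads, taken as the floor, was worth a value between 0.0548 and 0.069. Values are counts per scaled library size, in the CPM unit of the authors. Ruvbl1, whose row cannot tell the introduced copy from reads of the cells' own gene, lay between 27.6 and 28.4 in the 4 WT libraries, at 36.8 and 32.0 in RA normal medium, and at 45.0 and 42.9 in RA starved cells. Of 10 fibroblast markers, 9 had a mean of at least 1 in each group, and the exception was Lum, which was near 0. Their summed level was 9918 to 10246 in normal medium, 5313 to 5406 in WT starved cells and 7042 to 7059 in RA starved cells. This sum thus moved with medium and genotype in the same libraries as the genes below, but the markers did not all move alike. Col1a1 had means of 1688 in normal medium and 204 in starved cells in WT, and 1570 and 640 in RA. Dcn went the other way, with 5.90 and 7.44 in WT and 13.5 and 34.9 in RA. The part of these markers in the results was not tested. In bulk RNA, fewer cells that make a transcript and less transcript per cell cannot be told apart.

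Angiopoietin-like proteins resemble the angiopoietins in their coiled-coil and fibrinogen-like domains but do not bind the angiopoietin receptor Tie2. Angptl4 inhibits lipoprotein lipase and is a target of PPAR and hypoxia signalling, Angptl2 is linked to inflammation, and Angptl6 to vessel growth and energy balance. Fgf21 is a hormone of the fasting liver, and Gdf15 is a distant TGF-β family member that lowers appetite through a receptor of the hindbrain. Both are textbook targets of the integrated stress response, in which phosphorylated eIF2α favours translation of the factor ATF4. Vegfa drives the growth of blood vessels and Adm encodes adrenomedullin, a peptide that widens vessels, and both are known targets of hypoxia-inducible factors.

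Promoters are shown for Angptl6, Fgf21 and Gdf15, which were higher in starved cells, and for Adm, in which the genotypes differed most. Each is the 250 bases before the annotated start in RefSeq (GRCm38.p6), written 5′ to 3′ on the strand of the gene. Capitals mark matches on either strand to 4 motifs, which are the C/EBP-ATF element TGATGNAA, the forkhead element GTAAANA, the hypoxia element core ACGTG, and the E-box CACGTG, which contains that core on both strands.
Angptl6 promoter, chr9:20879711-20879960, minus strand: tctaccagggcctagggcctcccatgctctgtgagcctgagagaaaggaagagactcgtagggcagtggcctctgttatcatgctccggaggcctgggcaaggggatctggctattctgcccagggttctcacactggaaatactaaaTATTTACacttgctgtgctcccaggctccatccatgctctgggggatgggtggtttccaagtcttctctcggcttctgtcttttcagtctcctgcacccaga
Fgf21 promoter, chr7:45615491-45615740, minus strand: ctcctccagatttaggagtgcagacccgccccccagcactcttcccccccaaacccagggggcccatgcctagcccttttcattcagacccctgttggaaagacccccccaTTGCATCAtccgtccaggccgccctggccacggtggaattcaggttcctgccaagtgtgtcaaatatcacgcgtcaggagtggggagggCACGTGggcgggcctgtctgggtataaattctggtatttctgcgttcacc
Gdf15 promoter, chr8:70632457-70632706, minus strand: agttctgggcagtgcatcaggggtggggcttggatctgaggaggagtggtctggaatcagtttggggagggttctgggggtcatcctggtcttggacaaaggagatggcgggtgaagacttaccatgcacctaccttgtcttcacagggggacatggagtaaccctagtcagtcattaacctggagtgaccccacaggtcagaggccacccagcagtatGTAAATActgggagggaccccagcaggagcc
Adm promoter, chr7:110627407-110627656, plus strand: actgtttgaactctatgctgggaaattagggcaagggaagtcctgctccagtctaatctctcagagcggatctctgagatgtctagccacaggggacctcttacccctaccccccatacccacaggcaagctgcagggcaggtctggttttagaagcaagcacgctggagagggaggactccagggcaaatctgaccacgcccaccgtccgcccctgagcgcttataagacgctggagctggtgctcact
The C/EBP-ATF element occurred in Fgf21 alone among these windows, as TTGCATCA, 139 bases before the start, and Fgf21 also held an E-box 50 bases before it. Forkhead matches stood 102 bases before the start of Angptl6 (TATTTAC) and 31 bases before that of Gdf15 (GTAAATA). None of the 4 motifs was found in the Adm window, where forms of the hypoxia core other than ACGTG were not searched. RefSeq lists a second start for Gdf15, whose window (chr8:70632096-70632345) holds an E-box 83 bases before it and is not printed. Vegfa, also higher in starved cells, has a window at chr17:46032378-46032627 with none of the 4 motifs. Its other window (chr17:46025164-46025413) holds the ACGTG form of the hypoxia core 211 bases before the start, and neither is printed. Among 32851 promoter windows of the same length, 3.452% held the C/EBP-ATF element, 10.9% the forkhead element, 16.57% ACGTG and 6.021% the E-box. A match is a description of the letters and not evidence of binding.

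Angptl6 differed most between media of the 7 genes on the log2(value + 1) scale, which compresses Fgf21 (GRCm38 chr9:20873808-20879727, minus strand, protein coding). It stood at 3.50 and 3.08 in WT normal medium, 159 and 163 in WT starved cells, 4.30 and 4.63 in RA normal medium, and 104 and 102 in RA starved cells. No libraries of different groups overlapped, and the starved RA cells lay between the normal and the starved WT cells. In read pairs this was a ratio of starved to normal of 49.0 in WT (95% counting interval 41.8 to 57.8) and 23.0 in RA (20.1 to 26.5). On the log2(value + 1) scale the difference was 5.24 in WT and 4.25 in RA, which ranked 2 of 16232 tested genes in each genotype.

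The genotypes differed in Angptl6 in both media, in opposite directions. In normal medium RA was higher by 0.35 (SE 0.067, limma adjusted p = 0.00303), and under starvation RA was lower, with a difference of -0.64 (SE 0.067, limma adjusted p = 3.63e-07). The response in RA less that in WT, called the interaction below, was -0.99 (SE 0.095, limma adjusted p = 2.57e-07). The small difference in normal medium depended on the fit, since with only the 2 groups compared its adjusted p was 0.103.

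The last part of Angptl6 overlaps A230050P20Rik, a gene on the opposite strand, over 500 bases of gene span and 265 exon bases, which are 16.8% of the exon bases of Angptl6. A230050P20Rik stood at 7.31 and 7.58 in WT normal medium, 23.8 and 26.7 in WT starved, 9.15 and 9.05 in RA normal medium and 27.1 and 26.6 in RA starved cells. It was thus also higher in the starved libraries. The kit does not mark strand, so reads from the shared bases cannot be assigned to either gene. They could make up at most the whole row of A230050P20Rik, which is 23.8 to 27.1 of the 102 to 163 of Angptl6 in starved cells.

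Angptl4 (chr17:33773750-33781830, minus strand) went the other way. It stood at 12.9 and 11.9 in WT normal medium and 0.377 and 0.621 in WT starved cells, and at 13.6 and 13.9 in RA normal medium and 1.80 and 1.40 in RA starved cells. The ratio of normal to starved in read pairs was 24.5 in WT (16.5 to 37.8) and 8.54 in RA (6.76 to 10.9), and the WT starved values rest on 26 read pairs in all. The differences of starved from normal medium were -3.17 in WT and -2.50 in RA on the log2(value + 1) scale. In normal medium the genotypes did not pass the test, with a difference of 0.13 (SE 0.12, adjusted p = 0.552). Under starvation RA was higher by 0.80 (SE 0.12, limma adjusted p = 3.00e-05), and the interaction was 0.66 (SE 0.18, limma adjusted p = 0.00472). The pseudocount compresses these values, since edgeR on the recovered reads gave 1.68 and 1.55.

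Angptl2 (chr2:33216069-33247717, plus strand) was likewise lower in starved cells, and less so in RA. It stood at 55.6 and 53.7 in WT normal medium, 12.2 and 9.98 in WT starved, 54.0 and 56.2 in RA normal medium, and 21.7 and 20.6 in RA starved cells. The normal medium groups overlapped and differed by 0.01 (SE 0.075, adjusted p = 0.946), whereas the starved groups lay apart by 0.88 (SE 0.075, limma adjusted p = 2.64e-08). Starved less normal was -2.21 in WT and -1.34 in RA, and the interaction was 0.87 (SE 0.11, limma adjusted p = 4.15e-06). RA starved cells thus held a level between those of normal and WT starved cells for each of the 3 angiopoietin-like genes, whichever way the gene went. This is not particular to these genes, since responses over all tested genes also spanned a narrower range in RA. Between media, 78.6% of all tested genes were called in WT and 68.7% in RA. The share of all genes with such an intermediate level was not counted.

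Fgf21 (chr7:45613886-45615490, minus strand) was close to undetected in normal medium. Its value there was 0.0435 and 0.0403 in WT, each from 2 reads, and 0.0460 and 0.0775 in RA, from 2 and 4 reads. Starved cells had 1.84 and 1.94 in WT and 2.08 and 2.11 in RA. The ratio of starved to normal in read pairs was 45.3 in WT, with a counting interval of 12.2 to 379 since it rests on 2 pairs, and 33.1 in RA (11.0 to 163, from 3 pairs). Unlike the angiopoietin-like genes, Fgf21 showed no difference between genotypes that passed the test. The difference under starvation was 0.10 (95% interval -0.18 to 0.37, limma adjusted p = 0.536) and the interaction 0.07 (-0.32 to 0.46, adjusted p = 0.777). Missing the threshold does not show that the genotypes are alike. With 2 and 3 read pairs in normal medium these intervals hold for this scale only, and the interaction was -0.39 in edgeR (adjusted p = 0.734) and -0.44 in DESeq2 (adjusted p = 0.765).

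Gdf15 (chr8:70629393-70632456, minus strand) stood at 0.522 and 0.322 in WT normal medium and 0.920 and 0.853 in RA normal medium. In starved cells it reached 3.69 and 5.41 in WT and 5.25 and 5.62 in RA, and these groups overlapped. The read-pair ratio of starved to normal was 11.0 in WT (6.97 to 18.4) and 6.15 in RA (4.43 to 8.72). RA exceeded WT in normal medium by 0.41 (SE 0.15, limma adjusted p = 0.0959), which the pseudocount compresses. At a pseudocount of 0.1 the difference was 0.94 (adjusted p = 0.0222), in DESeq2 1.06 (adjusted p = 0.0355) and in edgeR 1.06 (adjusted p = 0.0576). Under starvation the difference was 0.23 (95% interval -0.09 to 0.55, limma adjusted p = 0.190). The value moved with the WT libraries, since it was 0.0050 (adjusted p = 0.981) without WT starved replicate 1 and 0.46 (adjusted p = 0.0274) without WT starved replicate 2. The interaction was -0.18 (-0.63 to 0.27, adjusted p = 0.503) on the log2(value + 1) scale. It was -0.79 in edgeR (adjusted p = 0.105) and -0.82 in DESeq2 (adjusted p = 0.107), which do not add the pseudocount.

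Vegfa (chr17:46016993-46032369, minus strand) was higher in starved cells and less so in RA. It stood at 66.7 and 66.2 in WT normal medium, 344 and 341 in WT starved, 66.2 and 70.8 in RA normal medium and 275 and 271 in RA starved cells. Its starved-to-normal ratio in read pairs was 5.16 in WT (4.97 to 5.36) and 3.98 in RA (3.83 to 4.14). The normal medium groups overlapped (difference 0.04, adjusted p = 0.559). Starved RA cells had less Vegfa transcript than starved WT cells, by -0.33 (SE 0.040, limma adjusted p = 2.21e-06), and the interaction was -0.37 (SE 0.057, limma adjusted p = 4.62e-05).

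Adm (chr7:110627661-110629820, plus strand) separated the genotypes most. It stood at 24.4 and 24.3 in WT normal medium and 23.7 and 25.0 in RA normal medium. Starved WT cells had 5.76 and 6.38, whereas starved RA cells had 20.8 and 20.2. The ratio of normal to starved in read pairs was 3.99 in WT (3.52 to 4.54) and 1.19 in RA (1.10 to 1.30). In normal medium the groups overlapped, with a difference of 0.00 (adjusted p = 0.984). Under starvation RA was higher by 1.60 (SE 0.075, limma adjusted p = 1.01e-11), and the interaction was 1.60 (SE 0.11, limma adjusted p = 2.71e-09), rank 280 from the top among 16232 genes.

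**Figure D1:**
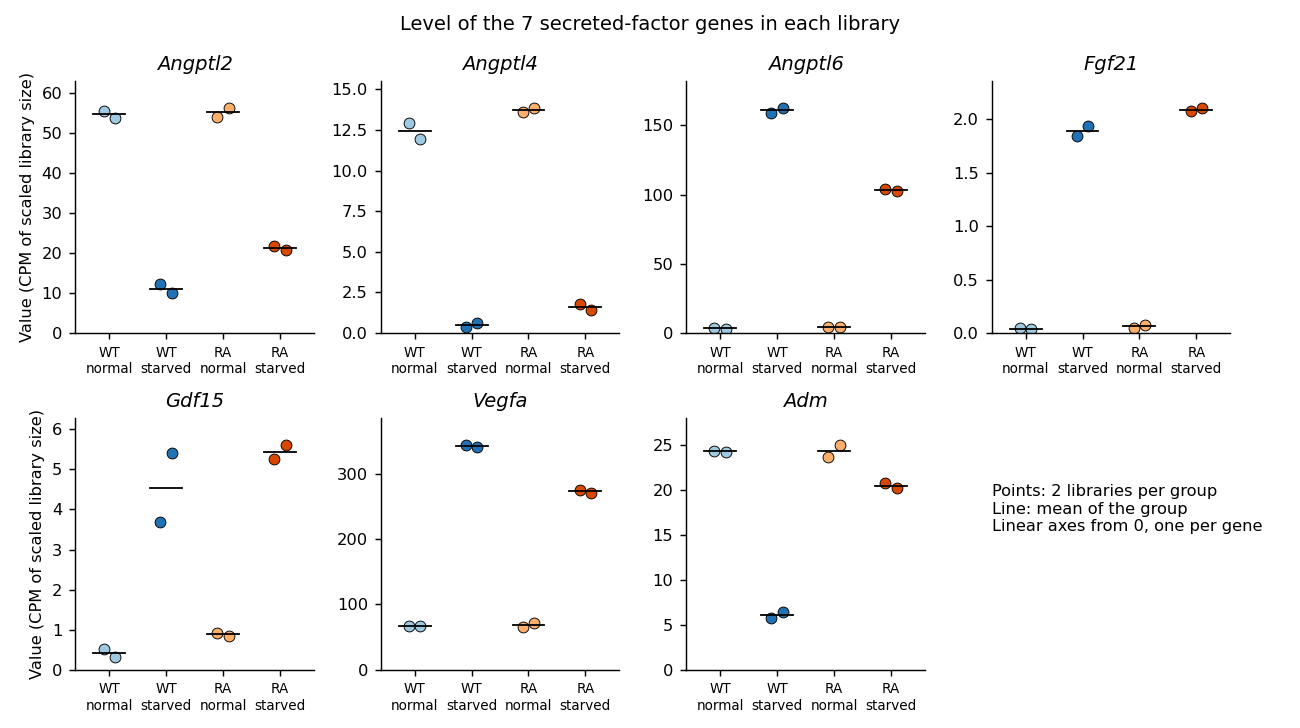
Level of each of the 7 genes, in CPM of the scaled library size on linear axes from 0, in the 2 libraries (points) and the mean (line) of each group. Starved RA cells lie between normal and WT starved cells for Angptl2, Angptl4, Angptl6, Vegfa and Adm, while for Fgf21 and Gdf15 their mean is above that of the WT starved cells.

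Genes that share a span with a member were read first as to what their rows hold. Among 505 pairs in which a gene lies within the span of another without shared exon bases, the outer gene had at least as many reads as the inner one in all 8 libraries in 499, on either strand. The rows therefore count reads over whole gene spans, introns and nested genes included. Gm28863, an antisense gene whose span contains Adm and whose exons lie outside it, had 1 to 10 reads more than Adm in each library, so nearly all of its reads fall within Adm. The row of Gm28863 is not a separate measurement, and antisense transcription within Adm cannot be told apart from Adm. In the same way Ralgps1 contains Angptl2, and it exceeded Angptl2 by 4.51 to 5.97 in WT and in RA normal medium and by 8.97 and 9.04 in RA starved cells. No exon of Ralgps1 lies within Angptl2, though its introns do. Since spans rather than exons were counted, levels of different genes cannot be ranked as transcript amounts. They are set side by side for such overlapping rows, to bound the reads they can share. Marker sums and receptor levels are given as a description.

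**Figure D2:**
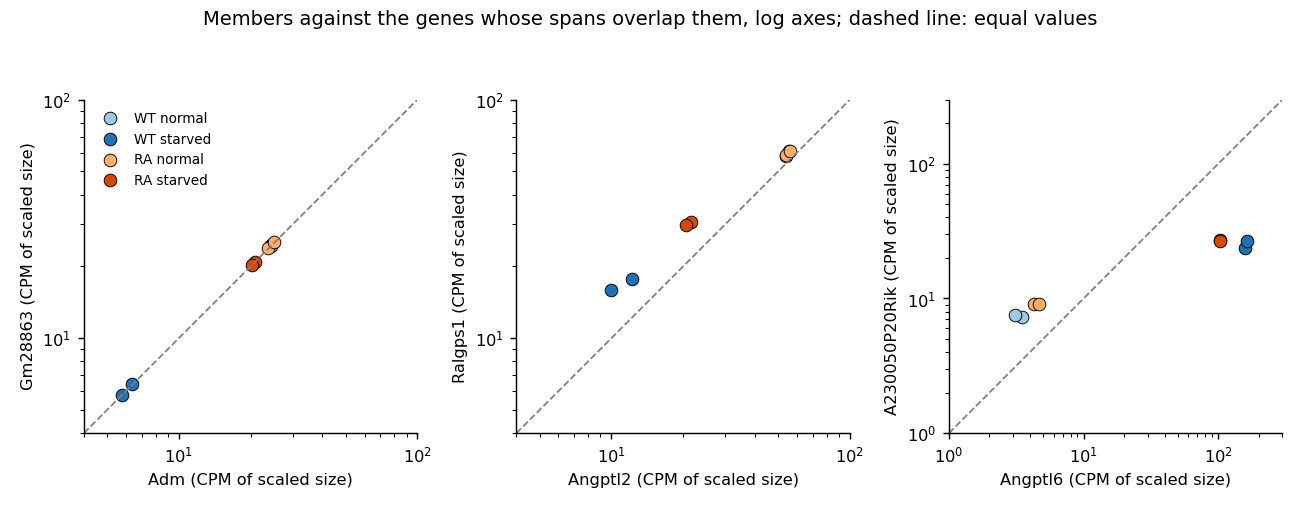
Value of each member (horizontal) against the gene whose span overlaps it (vertical), in CPM of the scaled library size on log axes, with 1 point per library and a dashed line of equal values. Gm28863 lies on the line with Adm and Ralgps1 just above it with Angptl2, whereas A230050P20Rik is below Angptl6 in all 4 starved libraries.

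Set side by side, 4 of the 7 genes were higher in starved cells in both genotypes (Angptl6, Fgf21, Gdf15 and Vegfa) and 3 were lower (Angptl2, Angptl4 and Adm). Starved and normal libraries did not overlap for any of them, which was also so for 88.7% of the tested genes in WT and 83.3% in RA, and nothing is read from this count. In normal medium 1 of 7 was called between genotypes, against 9.63% of 16232 genes, and it was higher in RA, as 6.68% of genes were, while 2.95% were lower. Groups did not overlap there for 4 of 7 members and 53.2% of genes. Under starvation 5 of 7 were called, against 62.9% of genes, with 3 higher in RA (30.8% of genes) and 2 lower (32.1%), and 6 of 7 did not overlap, against 81.5%. In the interaction 5 of 7 were called, against 50.6%, with 3 higher (24.5%) and 2 lower (26.1%). The middle 90% of all interactions ran from -0.63 to 1.004, so those of Adm and Angptl6 were outside it and the other 5 inside. With 7 genes, these shares are not a result about the members as a group.

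**Figure D3:**
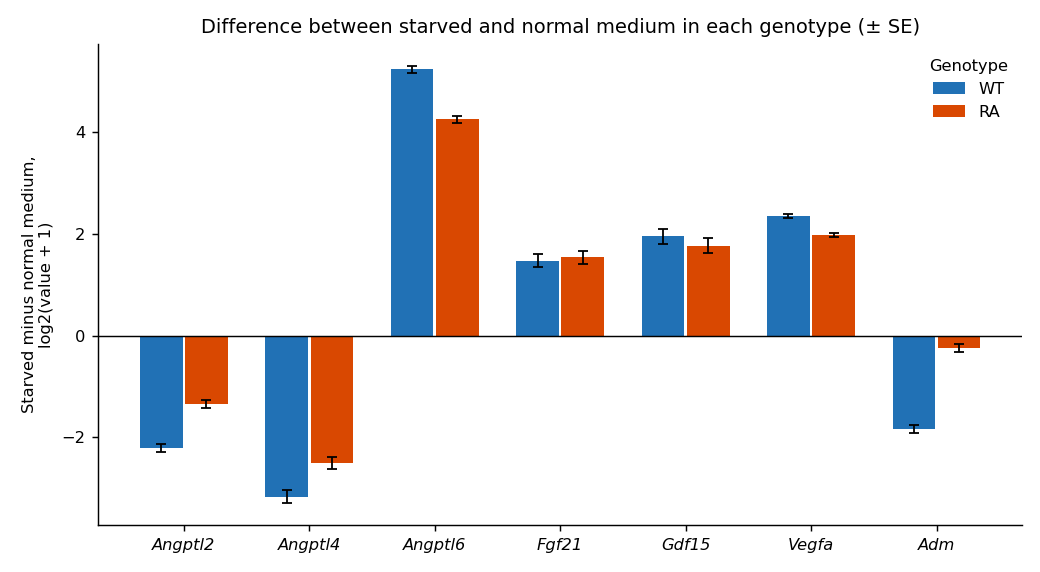
Difference between starved and normal medium on the log2(value + 1) scale for each gene in WT and RA, with bars from 0 and error bars of 1 SE. The bars of RA are shorter for 6 genes and differ most for Adm, at -1.84 in WT and -0.24 in RA, while those of Fgf21 are nearly equal at 1.47 and 1.54. Responses over all tested genes also spanned a narrower range in RA.

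Of the lists of pathway genes, 82 of 98 genes present could be tested. In WT 50 were called higher and 19 lower under starvation, and in RA 48 and 20, against 78.6% and 68.7% of all genes called in either direction. Of all genes, 39.3% were called higher and 39.2% lower in WT, and 35% and 33.7% in RA. In the interaction 17 were called higher and 25 lower, against 24.5% and 26.1% of all genes. Between genotypes 22 were called in normal medium, against 9.63%, and 62 under starvation, against 62.9%. These lists were written with earlier results of the data known and are described by their counts.

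Relatives of the angiopoietin-like genes were few in these cells. Angptl1, Angptl7 and Angptl8 stayed below 1 in every library. Angpt1, the ligand that activates Tie2, fell from 3.22 and 2.90 to 0.126 and 0.110 in WT and from 3.54 and 4.03 to 1.68 and 1.45 in RA, with an interaction of 0.96 (SE 0.18, limma adjusted p = 0.000351). Angpt2, its antagonist, fell in both genotypes, by 0.59 in WT and 0.43 in RA on the log2 scale. Its interaction of 0.16 did not pass (adjusted p = 0.510). Tek, which encodes Tie2, was at 3.06 and 2.32 in WT starved cells and at most 0.548 in all other libraries. It passed the filter only through its WT starved libraries, so its interaction of -1.24 (SE 0.21) is a description.

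The lipases that Angptl4 and its relatives inhibit differed in how they followed the genotype. Lipg, endothelial lipase, fell from 9.41 and 8.43 to 0.608 and 0.731 in WT, whereas RA had 8.90 and 9.15 in normal medium and 9.21 and 9.25 in starved cells. Its interaction of 2.60 (SE 0.15, limma adjusted p = 5.16e-10) exceeded that of every member. Lpl, lipoprotein lipase, fell in both, from 59.9 and 58.1 to 31.3 and 34.5 in WT and from 65.3 and 70.9 to 44.1 and 43.6 in RA. Sel1l and Lmf1, needed for lipase maturation in the endoplasmic reticulum, rose in both genotypes and less in RA, with interactions of -0.77 and -0.73. The lysosomal membrane protein gene Glmp had an interaction of -0.56. Gpihbp1, which anchors Lpl to capillaries, had 0 reads in all libraries, each of which allows a value of up to 0.0548 to 0.069.

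Among the receptors for Fgf21, the obligate co-receptor Klb stayed between 0.0388 and 0.272 in all libraries. Fgfr1 rose with starvation in both genotypes, from 198 and 197 to 298 and 294 in WT and from 211 and 209 to 311 and 308 in RA. Fgfr2 also rose in both, and the interactions of -0.02 and 0.11 did not pass the test. Fgfr4 was at 2.20 and 2.21 in WT starved cells and at most 0.349 in the other libraries. It passed the filter only through its WT starved libraries, so its interaction of -1.55 (SE 0.21) is a description. Gfral, the receptor for Gdf15, had no reads in normal medium or in RA and at most 0.0419 in WT starved cells. Furin, a protease that processes such precursors, fell in both, by 0.49 in WT and 0.40 in RA, with an interaction of 0.09 (adjusted p = 0.223). The co-receptor Klb and the receptor Gfral, which give these hormones their specificity, were thus low or undetected in the same cells, while Fgfr1 and Fgfr2 were not.

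Ligands and receptors of the VEGF family moved in both directions. Vegfb rose from 25.0 and 26.8 to 79.7 and 81.6 in WT and from 21.2 and 24.3 to 50.1 and 44.9 in RA, so that it shared with Vegfa the direction and the smaller response in RA (interaction -0.57, SE 0.096). Vegfd, a ligand for lymphatic vessels, fell from 35.0 and 40.4 to 5.11 and 4.57 in WT and from 32.6 and 34.3 to 14.6 and 16.0 in RA (interaction 1.65, SE 0.12). Nrp1, a co-receptor of Vegfa, fell from 91.5 and 86.1 to 11.6 and 9.85 in WT and from 92.8 and 78.8 to 27.2 and 24.1 in RA (interaction 1.24, SE 0.12). Flt1, a decoy receptor, fell less in RA as well (interaction 0.57, SE 0.14). Kdr, the main signalling receptor, rose in both genotypes, from 2.26 and 1.73 to 6.24 and 6.54 in WT, with an interaction of -0.27 that did not pass.

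Markers of endothelial cells, which usually carry these receptors, were checked in the same libraries. Their 8 genes summed to 2.21 to 2.48 in normal medium, 16.4 to 16.7 in WT starved cells and 5.17 to 5.43 in RA starved cells. Vwf made up 14.7 and 14.1 of the WT starved sums, while the defining markers Pecam1 and Cdh5 were at most 0.0838 there and Cldn5 had no reads in any library. Hepatocyte and adipocyte markers, for the tissues that usually make Fgf21 and Angptl4, summed to at most 1.82 and 0.311. Other lists were not near 0. Epithelial markers summed to 83.2 to 101.9 in normal medium, 37.3 to 38.8 in WT starved and 64.9 to 68.8 in RA starved cells. Krt19 made up 81.7 to 99.6 of the sums in normal medium. Macrophage markers summed to 21.6 to 25.7 and muscle markers to 1.70 to 4.87 over all libraries.

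Adm2, a relative of Adm that acts on the same receptors, went against Adm. It rose from 3.30 and 4.47 to 35.6 and 36.3 in WT and from 3.63 and 4.22 to 45.9 and 42.1 in RA, with an interaction of 0.26 that did not pass (SE 0.15, adjusted p = 0.153). The receptor gene Calcrl stood between 14.5 and 21.1 in all libraries, was not called under starvation in either genotype and was higher in RA than in WT starved cells. Its partner Ramp2 rose by 0.22 in both. Ramp3, another partner, fell in RA from 3.59 and 3.57 to 1.80 and 1.45, and was not called in WT, where it lay between 2.04 and 2.26 (interaction -0.83, SE 0.18). Pam, the enzyme that amidates adrenomedullin, fell by 0.40 in WT and 0.22 in RA (interaction 0.18, SE 0.052, limma adjusted p = 0.00862).

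**Figure D4:**
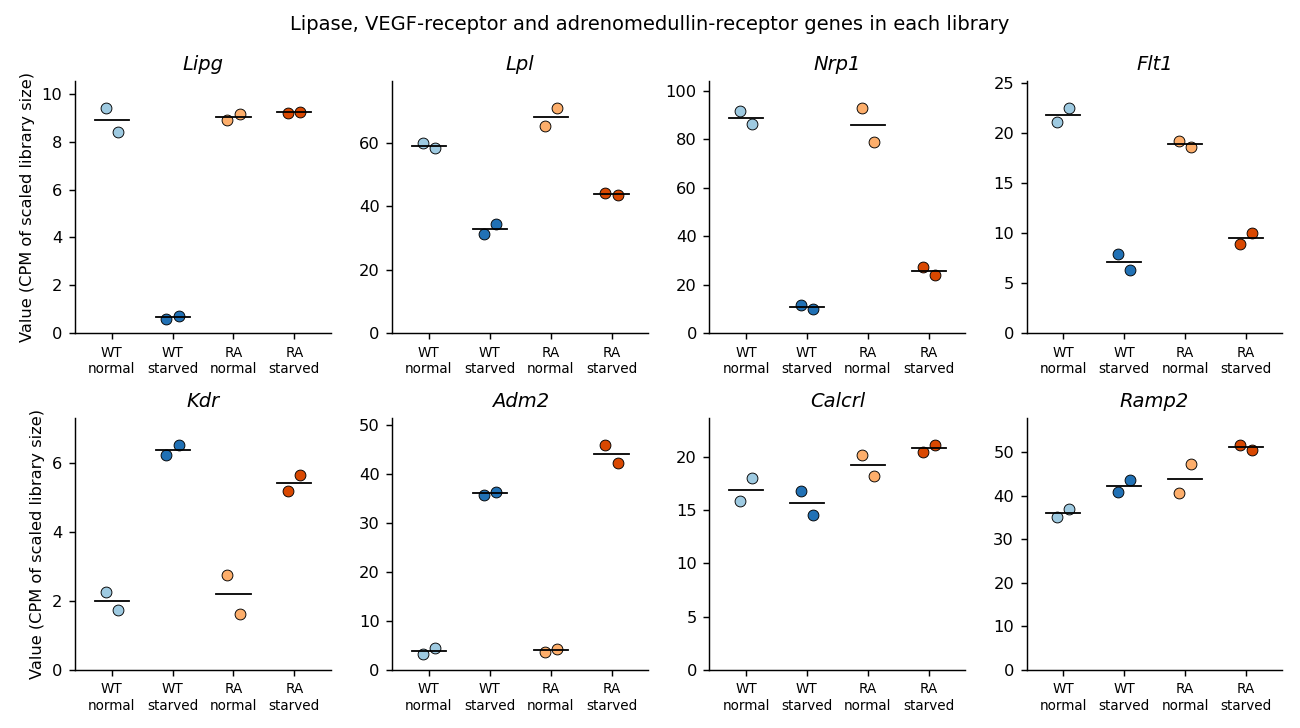
Level of genes for lipases and for receptors or relatives of Vegfa and Adm, in CPM of the scaled library size on linear axes from 0, with 2 libraries (points) and the mean (line) per group. Lipg is at 8.43 or above in all groups but WT starved, and Adm2 is at 35.6 or above in all starved libraries.

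In the integrated stress response list, to which Fgf21 and Gdf15 belong by their known control, 18 of 18 genes rose with starvation in each genotype. Of all tested genes, 39.3% were called higher in WT and 35% in RA. The median rise was 1.75 in WT and 1.69 in RA, beside medians over all tested genes of 0.00 and 0.01. Atf4 rose from 406 and 412 to 866 and 921 in WT and from 433 and 465 to 1014 and 999.8 in RA, and its interaction of 0.04 did not pass. Ddit3, the death-linked factor CHOP, rose in both and less in RA, from 48.7 and 49.7 to 854 and 902 in WT and from 49.6 and 52.7 to 664 and 658 in RA (interaction -0.46, SE 0.058). Ppp1r15a, Atf3 and Nupr1 had interactions of -0.97, -0.82 and -0.75. Across the list 6 genes were called lower in the interaction, 2 higher and 10 not called, beside 26.1% of all genes lower and 24.5% higher. A difference between genotypes was thus seen for some members of the list and not for others.

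The hypoxia list, which bears on Vegfa, Adm and Angptl4, had 16 tested genes. Of these, 12 rose and 3 fell with starvation in each genotype, though not the same genes, as Hif1a and Higd1a show. Over all genes, 39.3% were called higher and 39.2% lower in WT, and 35% and 33.7% in RA. In the interaction 8 were called lower and 3 higher, against 26.1% and 24.5% of all genes. The median was -0.32 beside -0.01 over all genes. Ndrg1, Bnip3, Kdm3a and Higd1a had interactions of -0.83, -0.82, -0.77 and -0.67. Hif1a itself fell in WT, from 179 and 178 to 127 and 128, and rose in RA, from 159 and 162 to 179 and 183. Higd1a rose in WT, from 41.4 and 40.9 to 58.1 and 58.7, and fell in RA, from 39.4 and 43.1 to 38.6 and 34.2. Vegfa was higher in starved cells of both genotypes, whereas Angptl4 and Adm were lower.

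**Figure D5:**
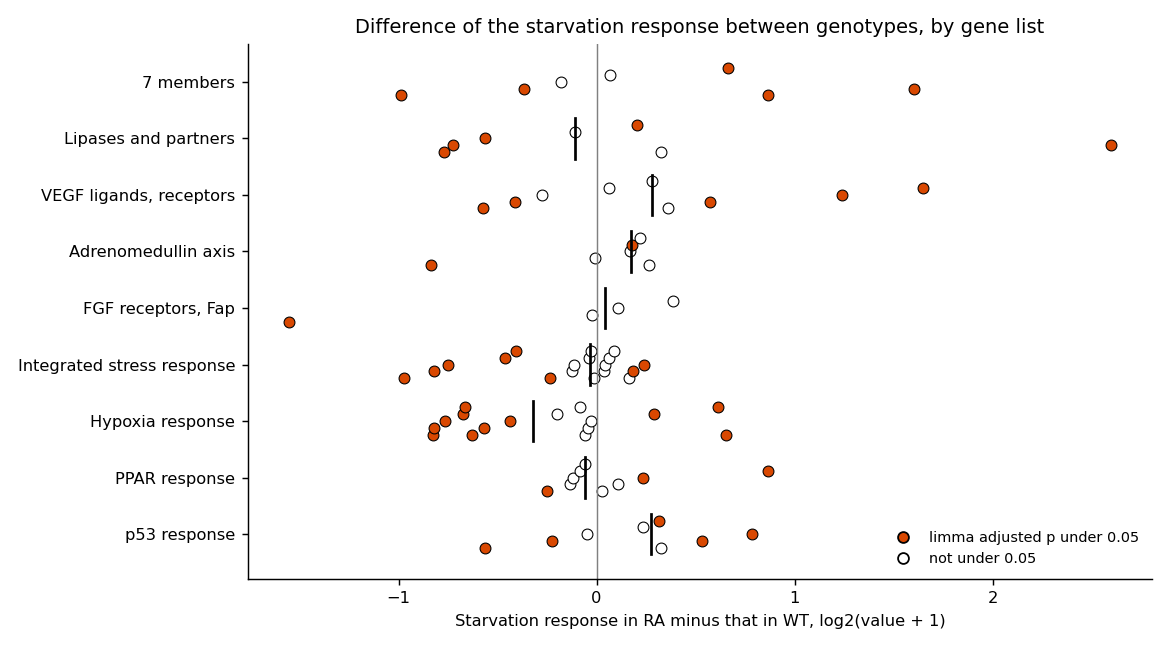
Starvation response in RA minus that in WT on the log2(value + 1) scale, with 1 point per gene, filled where the limma adjusted p was under 0.05, and a line at the median of each pathway list. The members spread from -0.99 for Angptl6 to 1.60 for Adm, and most filled points of the hypoxia list lie below 0.

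Other regulators of these genes were mixed. In the PPAR list, 3 of 9 genes rose and 2 fell in WT, and 3 rose and 5 fell in RA. Beside these and the p53 counts, 39.3% of all genes were called higher and 39.2% lower in WT, and 35% and 33.7% in RA. Ppard, a known regulator of Angptl4, stood between 29.1 and 31.8 in every library and was not called in any comparison. Pdk4, a classical PPAR target, fell from 7.44 and 7.34 to 2.47 and 2.52 in WT and from 12.6 and 10.7 to 8.07 and 9.13 in RA (interaction 0.87, SE 0.15), and Cpt1a and Rxra had interactions of -0.25 and 0.23. Acadvl did not pass, at -0.13 (adjusted p = 0.0799). In the p53 list, which bears on Gdf15, 4 of 8 genes rose in each genotype and 2 fell in WT and 1 in RA. Sesn1, Mdm2 and Cdkn1a had interactions of 0.78, -0.56 and 0.53, and Btg2 of 0.33 did not pass (adjusted p = 0.0624).

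Likeness of pattern was measured by the root mean square (RMS) difference of log2(value + 1), centred on each gene's mean over the 8 libraries, among tested genes with a mean of at least 10. The 3 closest genes are named for each member as a description. The added 1 compresses the low values of Fgf21, Gdf15 and Angptl4, so their likeness to more abundant genes holds on this scale only. Fgf21 was closest to Mthfd2 (RMS 0.017), a mitochondrial folate enzyme, followed by the seryl-tRNA synthetase gene Sars and the cystine transporter gene Slc7a11. Mthfd2 had a mean of 131 in WT normal medium and 374 in WT starved cells, a smaller ratio than the 45.3 of Fgf21 in WT. Vegfa was closest to Lonp1 (RMS 0.052), a mitochondrial protease, then Rhbdd1 and Slc38a7. Adm was closest to the row of Gm28863 that shares its reads, then to the integrin gene Itga6 (RMS 0.056) and to Fstl1 (RMS 0.057), a secreted glycoprotein gene.

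Angptl4 was closest to the mitotic cyclin genes Ccnb2 (RMS 0.12) and Ccnb1 (RMS 0.14) and to the thymidine kinase gene Tk1 (RMS 0.14). Angptl2 was closest to the profilin gene Pfn2 (RMS 0.084), then 8030451A03Rik and Tor4a. Gdf15 was closest to D2Bwg1423e (RMS 0.14), to Klf4, a transcription factor gene, and to Hexa, a lysosomal enzyme gene. For Angptl6 the closest genes were farther away, with an RMS of 0.27 for Gm19410, 0.28 for Sh2d6 and 0.37 for the actin-binding protein gene Avil. Sh2d6 had means of 40.7 in WT starved and 42.7 in RA starved cells, so it did not share the lower level of Angptl6 in RA. The added 1 also compresses Gm19410 and Sh2d6, whose means in normal medium were 0.302 to 1.06. Pearson's r was at least 0.989 for all these pairs over 8 libraries, which share the contrast of media.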

How the data were processed

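The members and all gene lists were chosen with earlier results of these data known. PolyA RNA was prepared with the TruSeq RNA v2 kit and sequenced as paired-end reads on an Illumina HiSeq instrument. The submitters' processing notes name TopHat2 (version 2.0.9), the mm9 build, bedtools and edgeR, with the counting settings not given in the sources used here. The authors deposited 1 signal value per gene and library, a read count in CPM of a scaled library size. Columns marked minus and plus were read as normal medium and starvation. Whole reads were recovered for 100% of values within 0.05 read, and 78.2 to 80.5% of low counts were even, as when both mates are counted, so read pairs are reads divided by 2. Reads were counted over gene spans without strand (see the nested genes in the results). Reads summed over all rows were 43205841 to 56363034 per library. Counting intervals and floors cover counting error only.

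The 16232 genes that reached a value of 1 in 2 or more libraries were fitted as log2(value + 1) by limma 3.58.1 in R 4.3.3, using a mean for each of 4 groups, a trend and 2-sided p-values with Benjamini-Hochberg adjustment over all genes, called under 0.05. The planned unit was CPM, and the test was kept. The smallest exact permutation p of 2 libraries against 2 is 0.333, so no such test was used. Alternatives were other pseudocounts, filters, scalings and fits, leaving out each library, a replicate block, and count models of the recovered reads in edgeR 4.0.16 and DESeq2 1.42.0. The fits were tested on simulated data. Replicates differed by more than counting noise in every group, with chi-square over its degrees of freedom of 1.74 to 8.36.

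Named genes are the members, genes overlapping them, for each member the 3 genes of mean at least 10 with the closest pattern, up to 4 genes of mean at least 1 per list in order of the size of the interaction, and receptors and regulators fixed by name. Tek, Fgfr4, Vwf, Pecam1, Cdh5, Cldn5, Lum, Col1a1, Dcn and Krt19 were also named after their values were seen. Positions are from GENCODE M21 (GRCm38), matched by symbol for 7 of 7 members, and promoter sequences from RefSeq (GRCm38.p6), which gave 8 windows for 6 of 7 members. The table holds 0 unused value columns. 1 gene of the lists is not reported here.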

Additional observations from a re-analysis of the deposited data

Results flagged for a closer look

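The results below stand out because the starvation response differed between the 2 genotypes by a test of the interaction (limma adjusted p under 0.05), a call made for 50.6% of all tested genes. Each value is the response in RA less that in WT on the log2(value + 1) scale. Among the members, the interaction was 1.60 for Adm, 0.87 for Angptl2, 0.66 for Angptl4, -0.37 for Vegfa and -0.99 for Angptl6. Among their relatives and partners, it was 2.60 for Lipg, 1.65 for Vegfd, 1.24 for Nrp1, 0.96 for Angpt1, 0.57 for Flt1 and 0.18 for Pam. It was 0.20 for Lpl, and negative for Ramp3 (-0.83), Sel1l (-0.77), Lmf1 (-0.73), Vegfb (-0.57) and Glmp (-0.56). Fgfr4 (-1.55) and Tek (-1.24) passed the filter only through their WT starved libraries, so their values are a description.

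In the stress and hypoxia lists, it was -0.97 for Ppp1r15a, -0.82 for Atf3, -0.75 for Nupr1 and -0.46 for Ddit3, and -0.83 for Ndrg1, -0.82 for Bnip3, -0.77 for Kdm3a, -0.67 for Higd1a and 0.65 for Hif1a. In the PPAR and p53 lists, it was 0.87 for Pdk4, 0.23 for Rxra and -0.25 for Cpt1a, and 0.78 for Sesn1, 0.53 for Cdkn1a and -0.56 for Mdm2. Ruvbl1, the gene whose form defines the genotypes, had an interaction of 0.34 (SE 0.091, limma adjusted p = 0.00568) in the same libraries, and its part in these results was not tested.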

How the results depend on the processing

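The groups hold 2 libraries each, so tests rest on few degrees of freedom, and Fgf21 and Gdf15 have few reads in normal medium. Called differences of members between genotypes under starvation and in the interaction kept their direction and their call under every alternative run. The count of genes called in normal medium was 650 with no filter, 590 without the trend in eBayes, and 559 to 1706 when 1 library was left out (559 and 830 without WT normal replicate 1 or 2, and 939 without RA normal replicate 2), beside 1563. Its share of higher calls was 69.4%, against 40.5% with scaling to total reads and 52.6% with quantile normalization. Members called there were 2 at a pseudocount of 0.1, 2 in DESeq2 and 0 in the fit on only the groups compared, where 2 members had an adjusted p near 0.1 (Angptl6 0.103 and Gdf15 0.101). Pathway genes called there were 11 without the trend and 14 to 22 with 1 library left out.

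Some small differences that passed no test changed sign, and the cause was not tested. For Adm in normal medium the difference was -0.0013 with median-ratio scaling, -0.043 with scaling to total reads, -0.035 with that scaling less the 100 most abundant rows (an alternative chosen after seeing the data), -0.015 with quantile normalization, -0.0041 in edgeR, -0.0028 in edgeR on halved reads, -0.011 in DESeq2, and -0.034 to 0.041 with 1 library left out. For Angptl2 in normal medium it was -0.036 with total reads, -0.028 with that scaling less the 100 rows, -0.0097 with quantile normalization, -0.0044 in DESeq2 and -0.017 to 0.040 with 1 library left out. For Vegfa in normal medium it was -0.0051 with total reads and -0.0057 to 0.090 with 1 library left out. For Fgf21 the interaction was -0.043 at a pseudocount of 0.1, -0.069 with quantile normalization, -0.39 in edgeR, -0.37 in edgeR on halved reads and -0.44 in DESeq2, and its starved difference was -0.027 with quantile normalization. The Gdf15 interaction ran from -0.41 to 0.045 with 1 library left out, and to -0.82 in DESeq2. The replicate block was run although replicates share only a number, since correlations of their deviations between groups ran from -0.0076 to 0.157. Under the block 2059 genes were called in normal medium, 10494 under starvation and 8578 in the interaction, with 1, 5 and 5 members.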
